A study of Mus musculus with 12 samples.

Results

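The genes described here are 38 striated muscle genes measured in RNA from ear skin of C57BL/6J mice. They were chosen as a list of sarcomere, calcium handling and muscle metabolism symbols, and all 38 were found among the 23234 gene symbols of each library. All 38 also passed the filter on low values used for testing (at least 1 FPKM in at least 3 libraries), as did 14059 symbols in all. FPKM counts fragments per kilobase of a transcript and per size of the library. It is a level per transcript length, and levels of different genes can be set side by side. RNA sequencing was done on 12 libraries in 4 groups of 3, from mice aged 8 to 12 weeks. The group called VDRcKO_Oxarol carried K5-Cre and floxed Vdr alleles (K5-Cre;VDR f/f) and received 100 mg of Oxarol ointment, with 2.5 µg of the vitamin D3 analogue maxacalcitol, on the ear. WT_Oxarol was wild type ears with the same ointment, WT_PBS was wild type ears given phosphate-buffered saline, and WT_untreated was wild type ears left alone. Treated ears were collected 1 day after application. In K5-Cre mice the keratin 5 promoter drives Cre, mainly in basal keratinocytes and not in muscle fibres. No untreated or PBS-treated K5-Cre;VDR f/f libraries were analysed here, so genotype was compared only under ointment.

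Striated muscle contracts when calcium released from the sarcoplasmic reticulum binds troponin on the thin filament and lets myosin heads of the thick filament pull on actin. Fast and slow fibres carry out the same cycle with different isoforms of myosin, troponin and calcium pump, encoded by separate genes. The mouse ear carries thin striated auricular muscles beside its cartilage, fat and hair follicles, so RNA taken from the ear can hold muscle transcripts among those of skin. In such bulk samples, fewer cells of a type and less RNA per cell cannot be told apart.

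Muscle transcripts took 0.821% to 3.81% of the summed FPKM of a library. The 38 genes summed to 8010, 7504 and 6687 FPKM in VDRcKO_Oxarol, to 4630, 6446 and 7535 FPKM in WT_Oxarol, to 7782, 4158 and 6720 FPKM in WT_PBS, and to 9619, 8854 and 18460 FPKM in WT_untreated. The third WT_untreated library stood far above the rest, and the second WT_PBS library was the lowest. The third WT_untreated library held the highest level for 32 of the 38 genes, while it held the highest level for 10.4% of all genes tested. The second WT_PBS library held the lowest level for 31 of the 38, against 10.7% of all genes tested. Most of the muscle genes thus varied together from library to library. The SD of a gene's log2 level over the 12 libraries had a median of 0.54 over the 38 genes, and the SD of its log2 level relative to the geometric mean of the 38 genes had a median of 0.27. Ldb3, a Z-disc protein, had the smallest SD of relative level, 0.046, against 0.48 for its level itself. Some slow-fibre genes went the other way, with a larger SD of relative level than of level. These SDs were 0.51 and 0.25 for Tnni1, 0.43 and 0.31 for Tnnc1, 0.39 and 0.29 for Myl3, and 0.38 and 0.29 for Tnnt1.

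**Figure D1:**
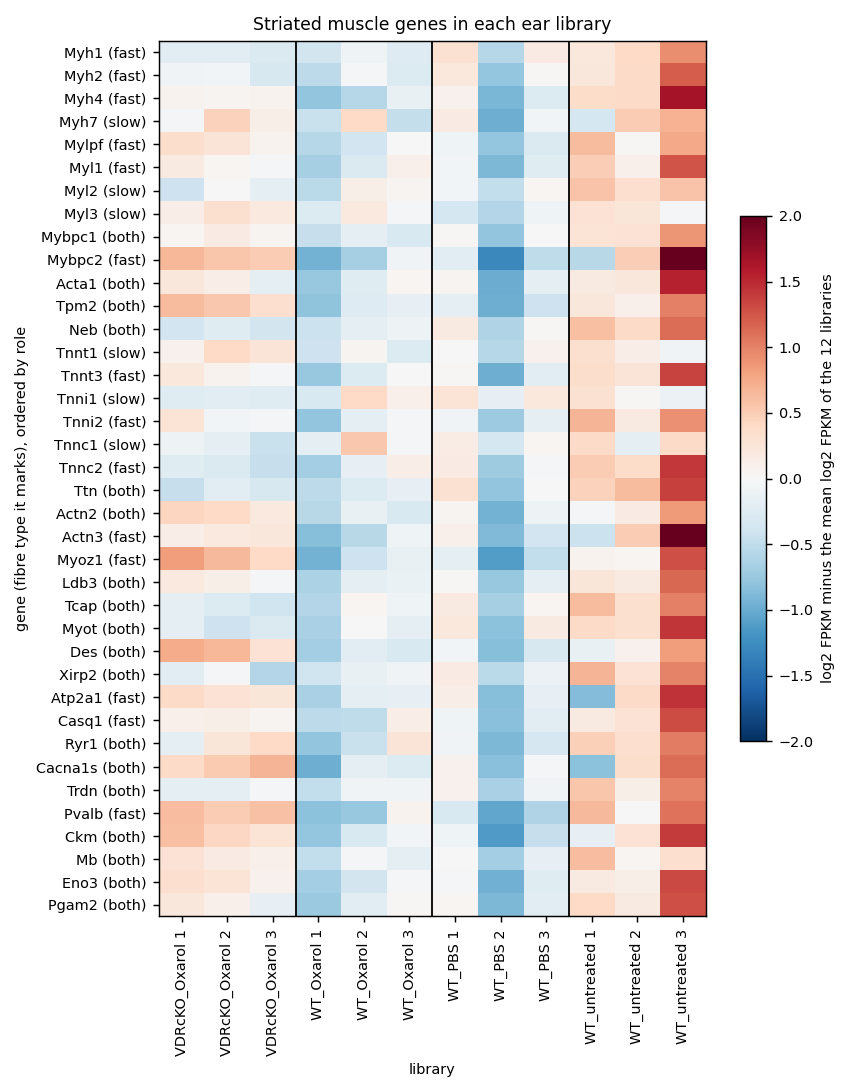
Level of each of the 38 muscle genes (rows, by role, with the fibre type each marks) in each of the 12 libraries (columns), as log2 FPKM minus the gene's mean log2 FPKM over the 12 libraries; colours stop at 2 and -2. The third WT_untreated column is the reddest, with the highest level for 32 of 38 genes, and the second WT_PBS column is the bluest, with the lowest level for 31 of 38.

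Promoter windows of the muscle genes are given as background, and their part in the differences between libraries was not tested. RefSeq promoter windows (build GRCm38.p6) were found by symbol for 30 of the 38 genes, as 37 windows of 250 bases before a listed transcription start. The files themselves were made on mm9, and no coordinate below refers to them. The 5 windows printed are those of Acta1, skeletal muscle actin (chr8:123894776-123895025, minus strand), Myh4, the type IIB myosin heavy chain (chr11:67237562-67237811, plus strand), Tpm2, beta-tropomyosin (chr4:43523555-43523804, minus strand), Des, the intermediate filament protein desmin (chr1:75360042-75360291, plus strand), and Tnnc2, fast troponin C and the muscle gene with the highest mean level (chr2:164779735-164779984, minus strand). Sequences read 5′ to 3′ toward the start, and capitals mark matches on either strand to the TATA box TATAAA, the E-box CAGCTG read by myogenic factors, the MEF2 site and the CArG box read by serum response factor.
Acta1: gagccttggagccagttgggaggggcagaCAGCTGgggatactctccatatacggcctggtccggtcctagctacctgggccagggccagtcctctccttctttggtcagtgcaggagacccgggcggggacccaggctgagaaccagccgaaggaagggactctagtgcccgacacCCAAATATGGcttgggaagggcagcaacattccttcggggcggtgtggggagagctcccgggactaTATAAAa
Myh4: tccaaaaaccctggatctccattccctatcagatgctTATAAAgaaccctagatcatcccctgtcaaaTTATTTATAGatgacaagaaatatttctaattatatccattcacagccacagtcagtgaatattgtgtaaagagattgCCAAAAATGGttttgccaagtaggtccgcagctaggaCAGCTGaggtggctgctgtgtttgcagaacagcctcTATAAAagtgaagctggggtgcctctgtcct
Tpm2: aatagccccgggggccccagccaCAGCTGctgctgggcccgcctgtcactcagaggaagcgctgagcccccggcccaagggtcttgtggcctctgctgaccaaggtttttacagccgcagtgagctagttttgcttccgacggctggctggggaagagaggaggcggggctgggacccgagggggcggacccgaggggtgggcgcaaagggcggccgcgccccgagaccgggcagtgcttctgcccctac
Des: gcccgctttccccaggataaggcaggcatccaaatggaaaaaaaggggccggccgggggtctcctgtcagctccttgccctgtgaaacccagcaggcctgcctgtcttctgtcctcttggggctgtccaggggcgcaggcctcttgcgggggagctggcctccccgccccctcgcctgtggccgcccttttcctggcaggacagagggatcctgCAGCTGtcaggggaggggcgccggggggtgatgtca
Tnnc2: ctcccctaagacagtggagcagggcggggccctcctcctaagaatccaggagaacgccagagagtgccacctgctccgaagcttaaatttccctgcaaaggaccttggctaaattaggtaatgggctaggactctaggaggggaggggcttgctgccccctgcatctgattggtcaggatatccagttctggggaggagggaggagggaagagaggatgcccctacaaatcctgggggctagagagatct
Acta1 had an E-box match 221 to 216 bases before the start, a CArG box match at 73 to 64 and a TATAAA match at 7 to 2. Myh4 held all 4 motifs, and its TATAAA match at 179 to 174 lies inside the MEF2 site at 182 to 173. The Tpm2 match is an E-box 227 to 222 bases before the start, and the Des match is an E-box at 36 to 31. The Tnnc2 window held no match to these letters. CAGCTG was found in 45.9% of the 37 muscle windows, against 13.0% of all 32851 windows of the same length. The MEF2 site was found in 16.2% against 2.92%, the CArG box in 13.5% against 1.47% and TATAAA in 16.2% against 12.4%. These are matches of letters, several windows belong to genes with more than 1 listed start, and binding was not measured.

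In the libraries labelled VDRcKO_Oxarol the gene-level Vdr value was 23.5, 25.0 and 17.98 FPKM, against 6.68 to 7.87 FPKM in WT_Oxarol, which goes against the direction of the genotype label. The deletion itself is not checked by this value, which covers all exons of the gene and also the cells that never carried active Cre. Cyp24a1, a target of the receptor, was listed at 0, 0.271 and 0.175 FPKM in VDRcKO_Oxarol, against 66.2, 599 and 458 FPKM in WT_Oxarol. Read numbers, estimated from the steps of low values relative to the first WT_PBS library, were 0.231 to 0.338 in VDRcKO_Oxarol, 0.37 to 1.21 in WT_Oxarol, 0.644 and 5.72 in the other WT_PBS libraries and 0.515 to 0.729 in WT_untreated. The library codes fall into a first series with replicates 1 and 2 of each wild type group and a second series with replicate 3 of each and all 3 VDRcKO_Oxarol libraries. The labels do not call the series a batch. Epidermal markers such as Krt10 and Krt14 were abundant in every library, summing to 8497 to 17730 FPKM, with Krt2 listed at 0 in the third WT_PBS library.

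The muscle in these ears was of the fast, skeletal kind by its transcripts. The 14 genes of fast fibres summed to 2429 to 10580 FPKM over the 12 libraries, and the 6 genes of slow fibres to 72.0 to 123 FPKM. The 9 markers of heart muscle summed to 6.56 to 14.7 FPKM, with Mybpc3, cardiac myosin binding protein C, at 0 to 0.03 FPKM and the cardiac ryanodine receptor Ryr2 at 0.01 to 0.03 FPKM. Among the myosin heavy chains, Myh1 (type IIX) made up 35.7% to 50.8% of the summed FPKM of Myh1, Myh2, Myh4 and Myh7 in a library. Myh4 (type IIB) made up 27.0% to 46.2%, Myh2 (type IIA) 14.04% to 18.01% and Myh7 (slow type I) 2.75% to 6.38%. The adult fast myosins are near-identical paralogs, so the split of reads among them is uncertain, as it is between Acta1 and the other actins.

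Troponin, the calcium sensor of the thin filament, gave a ratio of its 3 fast genes (Tnnt3, Tnni2, Tnnc2) to its 3 slow genes (Tnnt1, Tnni1, Tnnc1) in each library. The ratio was 33.3, 28.5 and 28.4 in VDRcKO_Oxarol, 26.4, 24.5 and 39.6 in WT_Oxarol, 35.0, 26.7 and 30.8 in WT_PBS, and 38.7, 43.4 and 85.9 in WT_untreated. It was highest in the third WT_untreated library. Over all 14 fast and all 6 slow genes, not the troponins alone, that library summed to 10580 and 110 FPKM. The sums of all 6 slow genes were 93.1, 106 and 94.99 FPKM in VDRcKO_Oxarol, and 77.3, 120 and 91.8 FPKM in WT_Oxarol. They were 103, 72.0 and 103 FPKM in WT_PBS, and 123, 105 and 110 FPKM in WT_untreated. The WT_PBS slow sums lay wholly below those of WT_untreated, and every other pair of groups overlapped. The third WT_untreated library thus stood out for fast and shared genes, while its slow sum lay between those of the other WT_untreated libraries. Relative to the geometric mean of the 38 genes, its log2 level differed from the mean of the other 11 libraries by -1.27 for Tnni1, -1.21 for Tnnt1 and -1.16 for the slow myosin light chain Myl3, and by 1.09 for Actn3, the fast-fibre alpha-actinin, and 1.08 for the fast myosin binding protein Mybpc2. These 5 genes were picked after their values were seen.

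**Figure D2:**
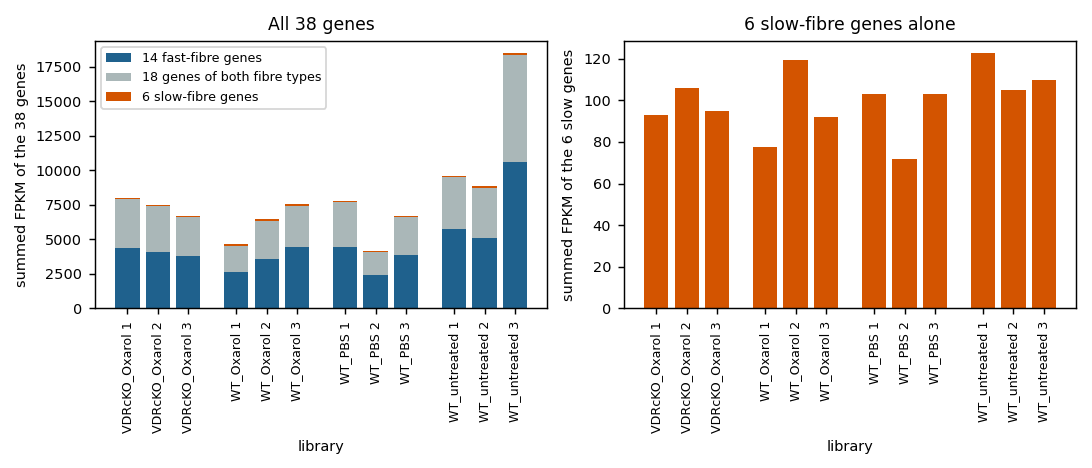
Summed FPKM of the 38 muscle genes in each library, stacked by the fibre type the genes mark (left), and of the 6 slow-fibre genes alone on their own scale (right). The third WT_untreated library reaches 18460 FPKM on the left, while its slow sum of 110 FPKM on the right lies within the range of the others, 72.0 to 123 FPKM.

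The muscle genes not given library by library below ranged from 0.461 FPKM, the lowest value of Ryr1, to 275 FPKM, the highest value of Pgam2, and none of them was called in any comparison. Among the contractile genes, Myh2 ranged over the 12 libraries from 11.99 to 47.5 FPKM and Myh7 from 2.76 to 8.82 FPKM. The slow light chains Myl2 and Myl3 ranged from 7.25 to 15.6 FPKM and from 5.02 to 9.41 FPKM. The giant thin filament protein nebulin, Neb, ranged from 9.76 to 32.3 FPKM. The slow genes thus had low levels, and Neb and Myh2 reached their highest values in the third WT_untreated library.

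Among the troponins, the fast inhibitory subunit Tnni2 ranged from 69.5 to 227 FPKM. Its slow counterpart Tnni1 ranged from 15.7 to 25.9 FPKM, Tnnt1 from 21.4 to 41.8 FPKM and Tnnc1 from 16.8 to 33.4 FPKM. The highest value lay in a WT_untreated library for Tnni2, in the second VDRcKO_Oxarol library for Tnnt1, and in the second WT_Oxarol library for Tnni1 and Tnnc1. In the Z-disc group, Ttn, the titin spring that spans the sarcomere, ranged from 2.63 to 11.7 FPKM, and Actn2 from 11.3 to 39.1 FPKM. Actn3 ranged from 20.3 to 155 FPKM and Myoz1 from 12.2 to 64.9 FPKM. Ldb3 ranged from 22.7 to 85.5 FPKM and Xirp2 from 3.07 to 9.18 FPKM. All of these Z-disc genes were highest in the third WT_untreated library.

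Among calcium genes, Casq1, the calcium store protein of fast fibres, ranged from 32.9 to 144 FPKM, and Trdn, triadin, which anchors it to the release channel, from 10.5 to 32.7 FPKM. Ryr1, the release channel itself, was the lowest of the 38 genes, at 0.461 to 1.75 FPKM, and Cacna1s ranged from 1.18 to 5.03 FPKM. These low genes are the ones whose differences the log2(FPKM + 1) scale understates most. Mb, the oxygen carrier myoglobin, ranged from 55.6 to 137 FPKM, with its highest value in the first WT_untreated library, and Pgam2, muscle phosphoglycerate mutase, from 60.3 to 275 FPKM.

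The first comparison asked how wild type ears responded to the ointment against PBS, and no muscle gene was called in it. Of the 38 genes, 0 passed an adjusted p of 0.05 (limma, Benjamini-Hochberg over all genes tested), while 0.306% of all genes did. The smallest adjusted p was 0.765, and 0 muscle genes had an unadjusted p under 0.05, against 7.45% of all genes. The log2 differences, on the log2(FPKM + 1) scale, ran from -0.20 to 0.26 with a median of 0.00, and 19 lay above 0 and 19 below. No muscle gene had groups that did not overlap, against 15.9% of all genes tested. The 95% intervals of the 38 differences reached as far as -1.19 and 1.15, so in the most variable genes differences of up to about that size lay within the interval.

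Acta1 had 833, 1191 and 1444 FPKM in WT_Oxarol, against 1456, 704 and 1228 FPKM in WT_PBS. Tnnc2 had 1203, 1724 and 2113 FPKM in WT_Oxarol, against 2175, 1176 and 1895 FPKM in WT_PBS. The groups overlapped in both genes, with low and high libraries on each side. Acta1 differed by 0.06 ± 0.38 (SE) and Tnnc2 by -0.05 ± 0.31 on the log2(FPKM + 1) scale. Ckm, muscle creatine kinase, which buffers ATP in the fibre, had 161, 225 and 267 FPKM in WT_Oxarol, against 260, 126 and 200 FPKM in WT_PBS. Its difference was 0.19 ± 0.37 (SE), and its groups overlapped too. Leaving out the second WT_PBS library gave a median difference of -0.21, and leaving out the first gave 0.16.

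The second comparison set the libraries labelled VDRcKO_Oxarol against WT_Oxarol, and 3 muscle genes rose. They were Tpm2, Des and Pvalb, which is 7.89% of the 38, while 13.1% of all genes tested were called in either direction and 8.71% were called higher. The share among muscle genes was thus no higher than the share among all genes. The median log2 difference of the 38 genes was 0.38, against 0.08 over all genes tested, and 28 lay above 0 and 10 below. For 17 genes (44.7%) the VDRcKO_Oxarol libraries lay wholly above WT_Oxarol, which was so for 27.9% of all genes tested. Because many muscle genes varied together from library to library, the genes in these counts are not independent observations. The direction here follows a genotype label that the Vdr level does not check.

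Tpm2, the beta-tropomyosin that covers the myosin sites on actin, had 127, 119 and 104 FPKM in VDRcKO_Oxarol, against 47.1, 68.6 and 73.2 FPKM in WT_Oxarol. It was higher in every VDRcKO_Oxarol library, by 0.90 ± 0.26 (SE, n = 3 each) on the log2(FPKM + 1) scale (limma, adjusted p = 0.0486). Des, which links myofibrils at the Z-disc, had 72.3, 68.1 and 52.4 FPKM in VDRcKO_Oxarol, against 26.8, 36.7 and 34.9 FPKM in WT_Oxarol. The groups did not overlap, with a log2 difference of 0.95 ± 0.26 (limma, adjusted p = 0.0414). Pvalb, parvalbumin, which soaks up calcium in fast fibres, had 99.7, 92.3 and 97.6 FPKM in VDRcKO_Oxarol, against 36.7, 38.6 and 68.5 FPKM in WT_Oxarol. Here too the groups did not overlap, with a log2 difference of 1.05 ± 0.30 (limma, adjusted p = 0.0429).

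Desmin and beta-tropomyosin are also made by smooth muscle. Of its 10 tested markers, 1 (10%), the smooth muscle protein gene Smtn, was called higher in VDRcKO_Oxarol, against 8.71% of all genes. The listed markers summed to 564, 541 and 479 FPKM in VDRcKO_Oxarol, against 317, 360 and 455 FPKM in WT_Oxarol. Most of that sum was Tpm1, an alpha-tropomyosin that skeletal muscle also makes, with 480, 456 and 408 FPKM in VDRcKO_Oxarol, against 266, 304 and 403 FPKM in WT_Oxarol. Like the muscle genes, Tpm1 was lowest in the second WT_PBS library and highest in the third WT_untreated library. Without Tpm1 the smooth muscle markers summed to 83.5, 85.2 and 71.5 FPKM in VDRcKO_Oxarol, against 50.98, 55.8 and 52.4 FPKM in WT_Oxarol. These sums did not overlap between the groups. Their part in the Des and Tpm2 results was not tested.

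All 3 calls were close to the threshold. Across 20 alternative settings the call was lost in 13 for Tpm2, in 11 for Des and in 11 for Pvalb, among them every setting that left out 1 VDRcKO_Oxarol library and those that left out the first or second WT_Oxarol library. With the library series as a term in the fit, 0 of the 38 were called and the median difference was 0.09, and within the second series alone, where WT_Oxarol has 1 library, 0 were called and the median was 0.16. The median was 0.19 without the first WT_Oxarol library, which held the lowest muscle sum of its group. A fit of these 2 groups alone called 14 muscle genes, all higher in VDRcKO_Oxarol, and 2711 of all genes, against 1848 in the fit of 4 groups. All VDRcKO_Oxarol libraries are of the second series, so series and genotype are told apart only through replicate 3 of the wild type groups.

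Markers of other ear tissues were also higher in the libraries labelled VDRcKO_Oxarol. The cartilage markers summed to 807, 603 and 678 FPKM in VDRcKO_Oxarol, against 309, 492 and 519 FPKM in WT_Oxarol. Of 13 tested, 8 (61.5%) were called higher, against 8.71% of all genes tested. The adipocyte markers summed to 1650, 1111 and 982 FPKM in VDRcKO_Oxarol, against 575, 754 and 819 FPKM in WT_Oxarol, with 0 of 10 called. The hair follicle markers summed to 1393, 753 and 323 FPKM in VDRcKO_Oxarol, against 78.3, 17.2 and 16.5 FPKM in WT_Oxarol, with 14 of 18 (77.8%) called higher. In each of these lists, as in the muscle list, the first VDRcKO_Oxarol library was the highest of its group. The calls of these marker genes, and that of Smtn, were not followed under the alternative settings. The part of these tissues in the muscle differences was not tested.

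By role, the median log2 difference between VDRcKO_Oxarol and WT_Oxarol was 0.69 for the 2 myosin binding proteins, 0.51 for the 6 calcium handling genes and 0.50 for the 4 genes of energy and oxygen supply. It was 0.40 for the 9 titin and Z-disc genes, 0.37 for the 3 actin, tropomyosin and nebulin genes, 0.29 for the 4 myosin light chains, 0.21 for the 4 myosin heavy chains and 0.15 for the 6 troponins. Myh1 had 50.4, 49.98 and 47.5 FPKM in VDRcKO_Oxarol, against 45.0, 54.9 and 49.0 FPKM in WT_Oxarol, a log2 difference of -0.01 ± 0.22 (SE). Myh4 had 47.4, 46.8 and 47.6 FPKM in VDRcKO_Oxarol, against 26.0, 30.4 and 41.0 FPKM in WT_Oxarol. Myh4 thus lay above WT_Oxarol in every VDRcKO_Oxarol library, but its difference of 0.55 ± 0.34 (SE) did not pass (limma, adjusted p = 0.28). Ckm had 419, 369 and 335 FPKM in VDRcKO_Oxarol, against 161, 225 and 267 FPKM in WT_Oxarol. Its libraries did not overlap either, and its difference of 0.80 ± 0.37 did not pass (limma, adjusted p = 0.164). Eno3, the muscle enolase of glycolysis, had 258, 246 and 217 FPKM in VDRcKO_Oxarol, against 128, 158 and 200 FPKM in WT_Oxarol, a difference of 0.59 ± 0.33 (limma, adjusted p = 0.236). Atp2a1, the fast calcium pump SERCA1, had 322, 299 and 292 FPKM in VDRcKO_Oxarol, against 157, 214 and 221 FPKM in WT_Oxarol. Its difference was 0.64 ± 0.46 (limma, adjusted p = 0.36), with no overlap of libraries. Myoz1, a Z-disc protein of fast fibres picked after its value was seen, had the largest difference, 1.09 ± 0.34, and an adjusted p of 0.0556 (limma).

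The light chains, binding proteins and Z-disc genes came next, with none called. Myl1, the fast essential light chain, had 817, 746 and 705 FPKM in VDRcKO_Oxarol, against 458, 594 and 774 FPKM in WT_Oxarol, and the groups overlapped. Mylpf, the fast regulatory light chain, had 470, 443 and 390 FPKM in VDRcKO_Oxarol, against 249, 282 and 366 FPKM in WT_Oxarol. Mylpf did not overlap, with a difference of 0.55 ± 0.23 (SE) that did not pass (limma, adjusted p = 0.123). Mybpc1, the slow-type myosin binding protein C also found in fast fibres, had 23.6, 25.7 and 24.0 FPKM in VDRcKO_Oxarol, against 16.8, 20.1 and 18.6 FPKM in WT_Oxarol. Mybpc2, its fast counterpart, had 12.0, 11.1 and 10.7 FPKM in VDRcKO_Oxarol, against 3.94, 4.77 and 7.21 FPKM in WT_Oxarol. Neither binding protein overlapped, with adjusted p of 0.229 for Mybpc1 and 0.178 for Mybpc2 (limma). Tcap, the titin cap of the Z-disc, had 564, 532 and 486 FPKM in VDRcKO_Oxarol, against 429, 659 and 605 FPKM in WT_Oxarol. Myot, the Z-disc protein myotilin, had 90.6, 76.9 and 84.3 FPKM in VDRcKO_Oxarol, against 65.3, 103 and 90.5 FPKM in WT_Oxarol. Both Z-disc genes overlapped between groups, with log2 differences of -0.08 ± 0.24 for Tcap and -0.02 ± 0.33 for Myot.

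The thin filament held both patterns. Acta1 had 1637, 1539 and 1221 FPKM in VDRcKO_Oxarol, against 833, 1191 and 1444 FPKM in WT_Oxarol. Tnnt3, the fast troponin that binds tropomyosin, had 602, 545 and 509 FPKM in VDRcKO_Oxarol, against 308, 433 and 526 FPKM in WT_Oxarol. Tnnc2 had 1638, 1574 and 1398 FPKM in VDRcKO_Oxarol, against 1203, 1724 and 2113 FPKM in WT_Oxarol. All 3 overlapped between groups, and their log2 differences were 0.37 ± 0.38 (SE) for Acta1, 0.42 ± 0.33 for Tnnt3 and -0.09 ± 0.31 for Tnnc2. The slow troponins, named after their values were seen, had differences of 0.44 ± 0.18 for Tnnt1 (limma, adjusted p = 0.12), -0.29 ± 0.17 for Tnni1 and -0.34 ± 0.21 for Tnnc1.

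**Figure D3:**
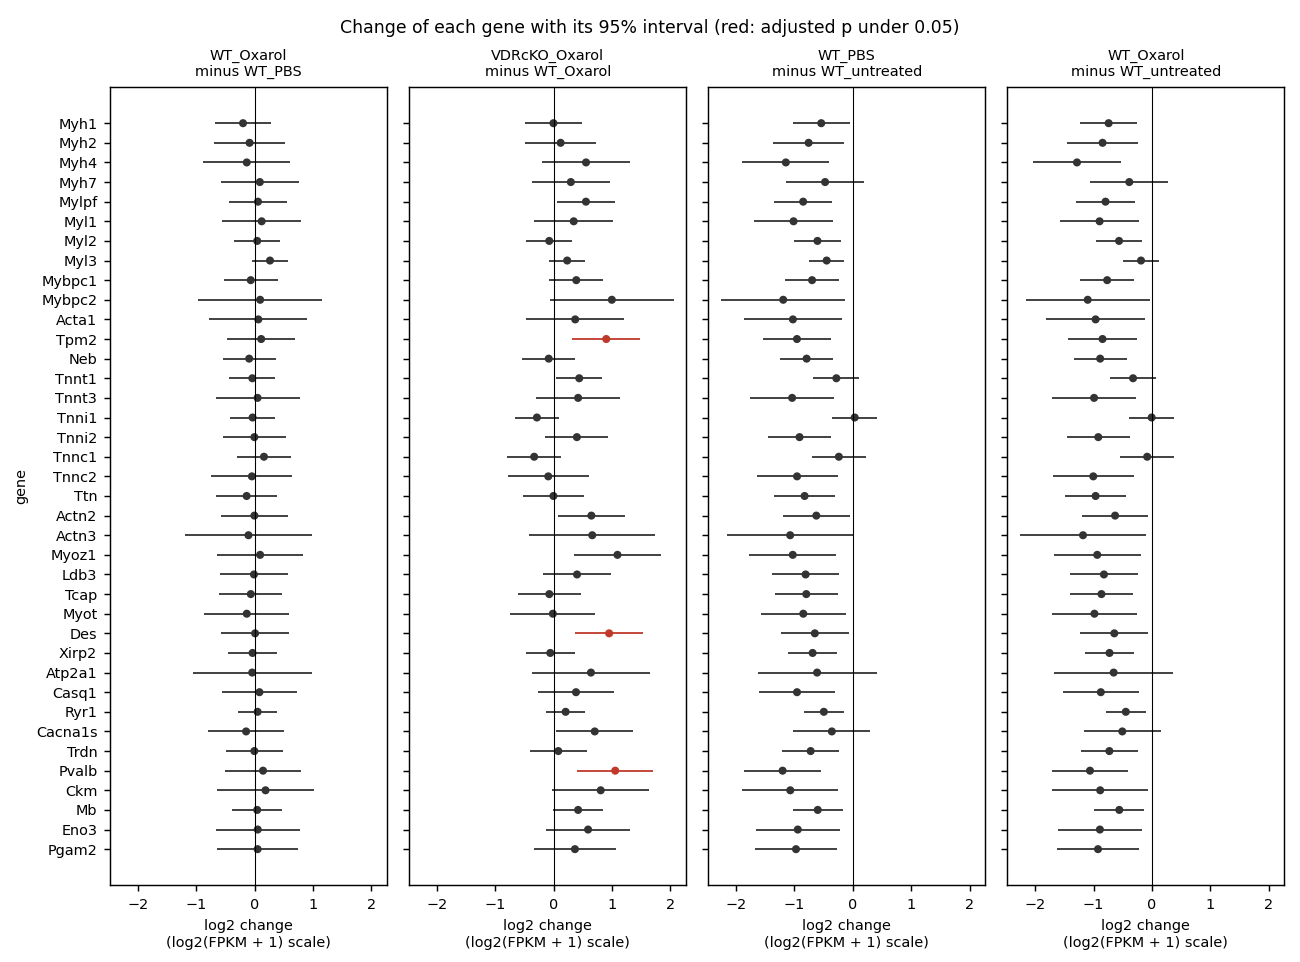
Difference of each of the 38 muscle genes (rows, by role) in 4 comparisons, on the log2(FPKM + 1) scale, with 95% intervals from limma; red marks an adjusted p under 0.05. Only Tpm2, Des and Pvalb, in VDRcKO_Oxarol minus WT_Oxarol, are red; differences from WT_untreated lie below 0 for 37 of 38 genes in WT_PBS and 38 of 38 in WT_Oxarol.

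Tnnc2 and Tnnt3 encode subunits of the same fast troponin complex, and their FPKM ratio separated the libraries by genotype label. The ratio was 2.72, 2.89 and 2.75 in VDRcKO_Oxarol, 3.91, 3.98 and 4.02 in WT_Oxarol, 4.08, 4.45 and 4.23 in WT_PBS, and 4.15, 3.98 and 3.88 in WT_untreated. The 3 VDRcKO_Oxarol libraries lay below all 9 wild type libraries, the third wild type library of each group, from the same library series, included. The ratio was picked after its values were seen, so no test is given. More widely, the log2 level of a gene relative to the geometric mean of the 38 genes was wholly higher in VDRcKO_Oxarol than in the 9 wild type libraries for 5 muscle genes and wholly lower for 8. These counts have no matched background, because the mean is made of the muscle genes themselves and so takes their shared swing out of them alone. In FPKM itself, with no such mean, 0 of the 38 were wholly higher and 0 wholly lower, against 15.0% and 6.34% of the 14059 genes tested. The 5 higher were Myoz1 (by 0.71), Des (0.63), Cacna1s, the voltage sensor of the calcium channel (0.58), Tpm2 (0.53) and Actn2, an alpha-actinin of the Z-disc (0.33). The 8 lower were Tnnc2 (-0.57), the giant proteins Ttn (-0.57) and Neb (-0.57), Myot (-0.52), Tcap (-0.51), the actin-binding Xirp2 (-0.51), Myh1 (-0.45) and Myh2 (-0.33). Both sets mix fibre types and roles, with Z-disc genes on each side.

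How far the relative levels went with base composition differed between libraries. For each library, the deviation of a gene's relative level from the mean of all other libraries was set against the GC content of its longest transcript. Across the 38 genes the Spearman correlation was 0.363 to 0.429 in VDRcKO_Oxarol and -0.456 to -0.0441 in WT_Oxarol. It was -0.412 to -0.177 in WT_PBS and -0.354 to 0.121 in WT_untreated. The same was done with log2(FPKM + 1), not relative levels, over the 12699 genes with a GC value, 90.3% of those tested. There it was 0.0957 to 0.269 in VDRcKO_Oxarol and -0.372 to 0.199 in the wild type libraries. These correlations run across genes of 1 library, which are not independent. The part of base composition in the relative levels was not tested.

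**Figure D4:**
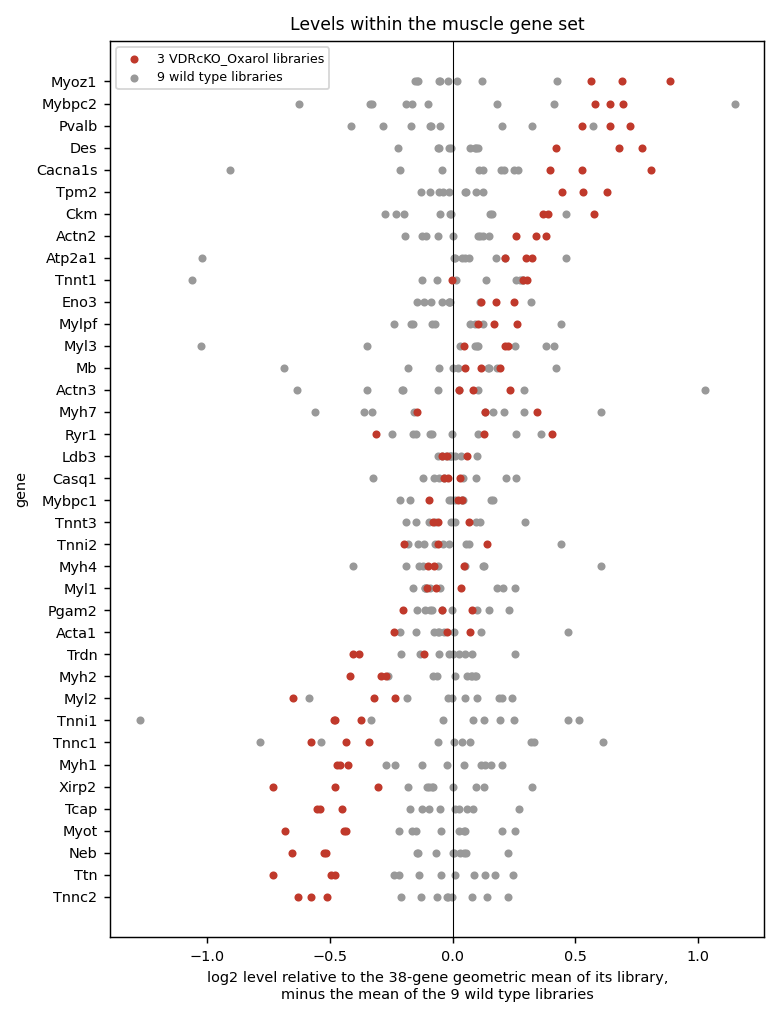
Log2 level of each muscle gene (rows) relative to the geometric mean of the 38 genes in its library, minus the mean of that value over the 9 wild type libraries; points are libraries. Red VDRcKO_Oxarol points lie wholly above the wild type points for 5 genes and wholly below them for 8.

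The first WT_untreated library departed in another way. Its ratio of Atp2a1 to Myl1 was 0.133, while the ratio was 0.394, 0.401 and 0.414 in VDRcKO_Oxarol, 0.343, 0.361 and 0.285 in WT_Oxarol, 0.389, 0.350 and 0.363 in WT_PBS, and 0.418 and 0.385 in the other WT_untreated libraries. Relative to the geometric mean of the 38 genes, its log2 level differed from the mean of the other 11 libraries by -1.19 for Atp2a1, -1.15 for Cacna1s, -0.86 for Mybpc2 and -0.72 for Actn3. These genes were picked after their values were seen. This library held the lowest level for 23.3% of all genes tested and the highest for 15.5%. Its GC correlation over all genes, -0.372, was the lowest of the 12.

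**Figure D5:**
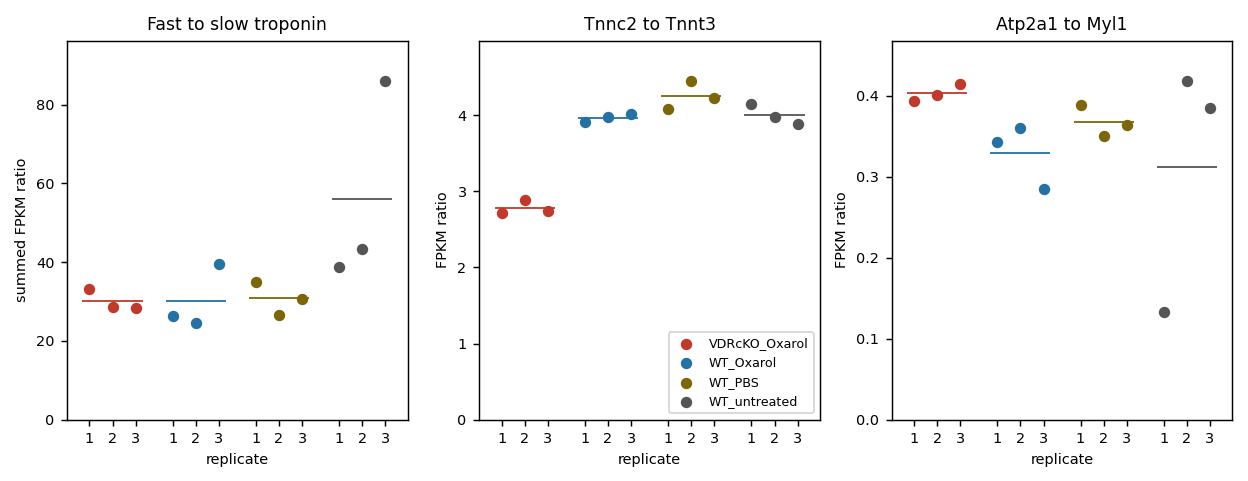
Ratios of FPKM in each library (points) with group means (lines): the 3 fast to the 3 slow troponin genes, Tnnc2 to Tnnt3, and Atp2a1 to Myl1. The third WT_untreated library reaches 85.9 in the first panel, the VDRcKO_Oxarol libraries lie at 2.72 to 2.89 below all others in the second, and the first WT_untreated library lies at 0.133 in the third.

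PBS and ointment were each also set against untreated wild type ears, and muscle genes lay lower in both, with none passing the test. In WT_PBS, 0 of 38 were called (limma, smallest adjusted p = 0.43), against 0.00711% of all genes, which is 1 gene. The median difference was -0.80, against 0.00 over all genes, and 37 of 38 genes lay below 0. For 26 genes (68.4%) the WT_PBS libraries lay wholly below WT_untreated, which was so for 7.43% of all genes tested, and 31 genes (81.6%) had an unadjusted p under 0.05, against 9.33%. In WT_Oxarol, 0 of 38 were called against WT_untreated (limma, smallest adjusted p = 0.0685), while 1.31% of all genes were. The median difference was -0.85, all 38 genes lay below 0, 26 (68.4%) lay wholly below WT_untreated, against 9.85% of all genes, and 31 had an unadjusted p under 0.05, against 17.1% of all genes. The 2 comparisons share the WT_untreated libraries and are not independent of each other. Many muscle genes also varied together from library to library, so the genes in these counts are not independent observations.

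Acta1 had 833, 1191 and 1444 FPKM in WT_Oxarol and 1456, 704 and 1228 FPKM in WT_PBS, against 1595, 1643 and 4069 FPKM in WT_untreated. Tnnc2 had 1203, 1724 and 2113 FPKM in WT_Oxarol and 2175, 1176 and 1895 FPKM in WT_PBS, against 2760, 2488 and 5161 FPKM in WT_untreated. Tnnt3 had 308, 433 and 526 FPKM in WT_Oxarol and 533, 264 and 448 FPKM in WT_PBS, against 665, 624 and 1330 FPKM in WT_untreated. In all 3 genes every untreated library lay above every treated wild type library, and the third untreated library stood far above the other two. The PBS differences were -1.03 ± 0.38 (SE) for Acta1, -0.96 ± 0.31 for Tnnc2 and -1.04 ± 0.33 for Tnnt3, with adjusted p of 0.435 to 0.472 (limma).

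Among the motor genes, Myh1 had 45.0, 54.9 and 49.0 FPKM in WT_Oxarol and 71.8, 39.4 and 65.3 FPKM in WT_PBS, against 67.8, 77.1 and 111 FPKM in WT_untreated. Myh4 had 26.0, 30.4 and 41.0 FPKM in WT_Oxarol and 48.2, 24.1 and 37.2 FPKM in WT_PBS, against 58.3, 59.1 and 143 FPKM in WT_untreated. Myh4 did not overlap WT_untreated in either group, and Myh1 overlapped it in WT_PBS. Myl1 had 458, 594 and 774 FPKM in WT_Oxarol and 697, 388 and 608 FPKM in WT_PBS, against 1017, 772 and 1735 FPKM in WT_untreated. Mylpf had 249, 282 and 366 FPKM in WT_Oxarol and 348, 216 and 304 FPKM in WT_PBS, against 570, 377 and 627 FPKM in WT_untreated. Both light chains were lower in every WT_PBS library than in any untreated one. Mybpc1 had 16.8, 20.1 and 18.6 FPKM in WT_Oxarol and 23.5, 13.3 and 23.2 FPKM in WT_PBS, against 27.8, 28.1 and 42.3 FPKM in WT_untreated. Mybpc2 had 3.94, 4.77 and 7.21 FPKM in WT_Oxarol and 6.45, 3.08 and 5.34 FPKM in WT_PBS, against 5.14, 10.7 and 31.1 FPKM in WT_untreated. Mybpc2 ranged widely within the untreated group, and its groups overlapped.

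At the Z-disc, Tcap had 429, 659 and 605 FPKM in WT_Oxarol and 731, 408 and 659 FPKM in WT_PBS, against 996, 805 and 1291 FPKM in WT_untreated. Myot had 65.3, 103 and 90.5 FPKM in WT_Oxarol and 119, 58.3 and 116 FPKM in WT_PBS, against 134, 129 and 277 FPKM in WT_untreated. Neither gene overlapped WT_untreated in either group. Des had 26.8, 36.7 and 34.9 FPKM in WT_Oxarol and 41.4, 23.7 and 34.4 FPKM in WT_PBS, against 38.8, 45.5 and 76.6 FPKM in WT_untreated. Tpm2 had 47.1, 68.6 and 73.2 FPKM in WT_Oxarol and 72.0, 42.1 and 61.8 FPKM in WT_PBS, against 96.1, 88.2 and 166 FPKM in WT_untreated. For both Des and Tpm2, and for Pvalb, the VDRcKO_Oxarol libraries given above lay inside the WT_untreated range. Those 2 groups differ in both genotype and treatment, and no test was made between them.

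Among calcium and energy genes, Atp2a1 had 157, 214 and 221 FPKM in WT_Oxarol and 271, 136 and 221 FPKM in WT_PBS, against 135, 322 and 668 FPKM in WT_untreated. Pvalb had 36.7, 38.6 and 68.5 FPKM in WT_Oxarol and 52.9, 31.5 and 43.0 FPKM in WT_PBS, against 102, 64.8 and 138 FPKM in WT_untreated. Atp2a1 overlapped in both comparisons, with the first untreated library lowest, while Pvalb was lower in every WT_PBS library. Ckm had 161, 225 and 267 FPKM in WT_Oxarol and 260, 126 and 200 FPKM in WT_PBS, against 248, 339 and 730 FPKM in WT_untreated. Eno3 had 128, 158 and 200 FPKM in WT_Oxarol and 200, 105 and 172 FPKM in WT_PBS, against 230, 221 and 510 FPKM in WT_untreated. Eno3 lay below WT_untreated in every treated wild type library, and Ckm overlapped it in both groups.

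Fast and slow genes differed in these values. The median log2 difference of the 14 fast genes was -0.93 in WT_Oxarol and -0.99 in WT_PBS against WT_untreated, that of the 18 genes of both fibre types was -0.83 and -0.79, and that of the 6 slow genes was -0.25 and -0.37. The slow troponin I gene Tnni1 had the smallest differences of the 6, 0.00 ± 0.17 (SE) in WT_Oxarol and 0.03 ± 0.17 in WT_PBS. The slow light chain Myl2 had -0.56 ± 0.18 and -0.61 ± 0.18, and lay wholly below WT_untreated in both. Of the 6 slow genes, 6 lay below 0 in WT_Oxarol and 5 in WT_PBS. The difference between fast and slow genes was not tested.

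The third WT_untreated library set much of the size of these differences. Without it, the median over the 38 genes was -0.53 for WT_Oxarol and -0.55 for WT_PBS, and 0 were called in both. Within the first library series, which lacks it, the medians were -0.66 for WT_Oxarol and -0.64 for WT_PBS, again with 0 called. Within the second series alone, with 1 library in each wild type group and the spread taken from VDRcKO_Oxarol, the medians were -1.16 and -1.14, and 7 and 6 muscle genes were called lower, among 63 and 29 calls over all genes. The adipocyte markers also peaked in the third untreated library, at 2994 FPKM against 749 and 1017 FPKM in the other two, while the cartilage markers summed to 445 FPKM there, against 537 and 578 FPKM. The epidermal markers summed to 9555 FPKM in that library, against 12590 and 13490 FPKM. Their part in the muscle differences was not tested.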

How the data were processed

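Ear skin RNA of 12 libraries in 4 groups of 3, as labelled, was used. Per the submitters' processing notes, the tools were Cufflinks 2.1.1, Bowtie2 2.1.0 and TopHat2 2.0.8, the build was mm9, and their settings are not stated in the sources used here. The authors deposited 1 value per gene symbol, taken as FPKM because of Cufflinks and the range of values; the headers print no unit. Whether the 3 libraries of a group are from different animals is not in the labels; p-values therefore cover the spread among these libraries alone, and that spread may be technical.

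After the filter of 1 FPKM in 3 or more libraries, values were tested as log2(FPKM + 1) with limma 3.58.1 in R 4.3.3: 4 group means, 8 residual degrees of freedom, an intensity trend and Benjamini-Hochberg adjustment at 0.05 over all 14059 genes. The scale understates changes of low genes. The fit was tested on simulated data. Errors are moderated standard errors. Read counts were not used here; relative read numbers rest on the steps of low values, with a factor of 2 possible.

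The 38 genes and all marker lists were chosen with earlier results of these data known. Values in every library were given for the 2 genes with the highest mean FPKM in each role and for every muscle gene called. GC content came from GENCODE M21 transcripts by symbol. Alternatives were each library left out, the first series alone, a term for library series, a fit of only the 2 groups at hand, median-of-ratios or quantile scaling, a filter of 5 FPKM or none, and a pseudocount of 0.1; the second series alone was added after seeing the data. Figures were drawn with matplotlib 3.10.9 in Python 3.11.15.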

Additional observations from a re-analysis of the deposited data

How the results depend on the processing

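The counts of muscle genes called varied most between VDRcKO_Oxarol and WT_Oxarol, where the reported 3 of 38 were 0 without a filter, 1 under median-of-ratios scaling, 14 with only the 2 groups compared, 0 with a term for library series and 0 in the second series alone. Leaving out 1 library in turn gave 0 to 5 there. It gave 0 in each of the other comparisons, except WT_Oxarol minus WT_untreated, with 0 to 2. In that comparison 2 were called with a term for library series and 7 in the second series alone. For WT_PBS minus WT_untreated the second series alone gave 6 calls and a median of -1.14. The second series alone was added after seeing the data. All medians kept their sign for VDRcKO_Oxarol minus WT_Oxarol and for both comparisons with WT_untreated under the alternatives run; that of WT_Oxarol minus WT_PBS lay from -0.21 to 0.16 when single libraries were left out. Of 758 single-gene values for VDRcKO_Oxarol minus WT_Oxarol, 708 kept their side of the threshold, 35 no longer passed and 15 newly passed. The side of the threshold was also kept by 794 of 794 values for WT_Oxarol minus WT_PBS. It was kept by 789 of 795 for WT_PBS minus WT_untreated and 784 of 795 for WT_Oxarol minus WT_untreated. Changes of direction among values that passed in neither fit were not counted. Calls over all genes for VDRcKO_Oxarol minus WT_Oxarol were 1848 as reported, 283 with a term for library series and 90 in the second series alone. Summed FPKM moved by less than 1 SD of its group under median-of-ratios scaling. That scaling cannot change the troponin ratio, which lies within a library, so the ratio has no check of this kind. The cause of these dependences was not tested. No paired analysis was possible because the labels give no replicate numbers; the numbers used here follow accession order and only name libraries. Depth per library is known only in relative terms, so no counting error is given.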

Other observations

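Further muscle genes outside the 38 are described here. Of 51 other sarcomere and muscle membrane genes in the files, 50 were tested, and 2 were called higher in the libraries labelled VDRcKO_Oxarol than in WT_Oxarol, which is 4% against 8.71% of all genes called higher. Jph2, which joins the cell membrane to the sarcoplasmic reticulum, had 2.16, 3.21 and 1.72 FPKM in VDRcKO_Oxarol, against 0.50, 0.709 and 0.878 FPKM in WT_Oxarol (limma, log2 difference 0.97 ± 0.20, adjusted p = 0.018). Fbxo32, the muscle ubiquitin ligase atrogin-1, had 9.40, 7.82 and 8.53 FPKM in VDRcKO_Oxarol, against 5.68, 4.96 and 5.20 FPKM in WT_Oxarol (limma, 0.61 ± 0.15, adjusted p = 0.0269). In both genes every VDRcKO_Oxarol library lay above WT_Oxarol. Alternative settings were followed gene by gene only for the 38, so calls of other genes, here and below, have no such check. Over all genes, 1848 calls in this comparison became 283 with a term for library series. All 50 genes lay below 0 in WT_Oxarol and in WT_PBS against WT_untreated, with medians of -0.56 and -0.55 and 0 called in both.

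Of 5 tested sarcomere genes of embryonic and neonatal muscle, 1 was called higher and 1 lower in VDRcKO_Oxarol than in WT_Oxarol. That is 40%, against 13.1% of all genes called in either direction. Myh3, Myh8 and Myl4 were not called. Actc1, cardiac and embryonic actin, had 4.35, 6.79 and 6.17 FPKM in VDRcKO_Oxarol, against 2.50, 1.82 and 3.96 FPKM in WT_Oxarol, and rose by 0.87 ± 0.22 on the log2 scale (limma, adjusted p = 0.0293). Tnnt2, cardiac and embryonic troponin T, had 11.1, 14.5 and 14.1 FPKM in VDRcKO_Oxarol, against 26.2, 28.3 and 28.6 FPKM in WT_Oxarol. It was lower there by 1.02 (SE 0.21, limma, adjusted p = 0.0186). Neither gene overlapped between these groups. Tnnt2 had 25.8, 18.5 and 13.1 FPKM in WT_PBS and 19.7, 16.55 and 12.9 FPKM in WT_untreated. Every WT_Oxarol library thus lay above all other libraries for Tnnt2. The margin was small, with 26.2 FPKM in the first WT_Oxarol library and 25.8 FPKM in the first WT_PBS library. Between WT_Oxarol and WT_PBS, 0 of the 5 genes were called (limma, smallest adjusted p = 0.525). Myf6, the myogenic factor of mature fibres, ranged from 10.3 to 37.8 FPKM over the 12 libraries, with its highest value in the third WT_untreated library and its lowest in the first WT_Oxarol library. Of 8 tested genes of the neuromuscular junction, 6 lay lower in VDRcKO_Oxarol than in WT_Oxarol and 2 higher, with a median log2 difference of -0.15, and 1 (12.5%) was called, against 8.71% of all genes called higher. That gene, Ache, the acetylcholinesterase of the junction, had 5.02, 4.58 and 5.34 FPKM in VDRcKO_Oxarol, against 2.15, 2.43 and 2.88 FPKM in WT_Oxarol (limma, 0.78 ± 0.23, adjusted p = 0.0495). Lrp4, the agrin receptor, averaged 16.4 ± 1.71 FPKM in VDRcKO_Oxarol and 23.3 ± 4.83 FPKM in WT_Oxarol (SD, n = 3 each), and its log2 difference of -0.47 did not pass (limma, adjusted p = 0.0528).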
